A study of Mus musculus with 3 samples.

Results

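Stretches of the mouse genome in which ATAC-seq found no accessible site were examined in hepatocytes, the metabolic and secretory cells that make up most of the liver. Chromosomes 1 to 19 of build mm10 were cut into bins of 250 kb counted from the chromosome start, the first 3 Mb of each chromosome was left out, and a bin was kept when no peak of any library overlapped it by 1 bp or more. This rule kept 1355 of 9625 bins (14.1%), which hold 338.75 of 2406.25 Mb, and the other 8270 bins had a peak in at least 1 library. The kept bins are called peak-free, a word that says only that no site there passed the peak caller's threshold. Because the absence of peaks chose the bins, that absence is a description, and no test was made of it or of anything measured from the same peaks.

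The study asks how the transcription factor Sox4 changes accessible chromatin when it is expressed in mouse hepatocytes. The 3 libraries described here come from livers of WT mice injected retro-orbitally with AAV8-TBG-Cre (label EV), an adeno-associated virus in which the TBG promoter, active in hepatocytes, drives Cre recombinase. Cells were taken on day 4 after injection, enriched and sorted before nuclei were prepared, and neither the sort marker, the age nor separate animals are given, so the spread between libraries may be technical. Libraries from the virus that carries Sox4 were not analysed here.

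ATAC-seq uses Tn5 transposase, which inserts sequencing adapters where DNA is not covered by nucleosomes. Long regions without such sites are known from several kinds of sequence, among them gene deserts and arrays of genes that another cell type uses. Odorant and vomeronasal receptors are a textbook case of such arrays: they arose by tandem duplication, lie in clusters, and are used in sensory neurons of the nose. Most promoters of broadly used genes lie in CpG islands, stretches that keep an unusual density of the CG dinucleotide, and these are commonly open in every cell type.

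The lists held 108997, 119230 and 110455 peaks for EV replicates 1, 2 and 3, called from 96066404, 116147036 and 117450440 tags. The library labelled EV replicate 2 stands apart and goes against its label: its highest pileup over Sox4 was 2544, against 128 in replicate 1 and 134 in replicate 3. It also had the only peak in 240 bins, against 36 bins for replicate 1 and 31 for replicate 3. Without it, 1595 bins (16.6%) were peak-free, and the main values without it are given beside the results below. All 15 hepatocyte markers, among them Alb, Hnf4a and Apoa1, had a peak within 1 kb of a gene end in all 3 libraries, against 65.8% of all protein-coding genes, and none lay inside a peak-free stretch. Such a peak was found in all libraries for 0 of 4 Kupffer cell markers, 0 of 5 endothelial, 3 of 5 stellate cell, 3 of 5 cholangiocyte and 4 of 5 neuronal markers. In bulk libraries, a site open in few cells and a site weakly open in many cannot be told apart.

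The promoters shown here carry a feature common among genes in peak-free bins, the near absence of CG. They are the 250 bases before the start that RefSeq gives on GRCm38.p6. They read 5′ to 3′ on the gene's own strand, with every CG in capitals. One gene is shown for each of the main families: an odorant receptor, a vomeronasal receptor of type 1 and one of type 2, a Pramel gene and a pair of alpha defensins. Hnf4a, which encodes a transcription factor that defines hepatocytes and which has a peak at its gene end in all 3 libraries, stands last as an open gene. For each family the gene shown is the one farthest from a peak among those with a promoter in the table, and for alpha defensins the first 2 of these. RefSeq places the start used for Olfr1234 inside the span that the gene table gives for this gene. The span of Vmn1r137 is only 924 bases, and those of Vmn1r138 and Olfr1238 are 921 and 948 bases. For such short receptor genes the start may be that of the coding sequence and not of the transcript, which was not examined.
Olfr1234, chr2:89363428-89363677, minus strand: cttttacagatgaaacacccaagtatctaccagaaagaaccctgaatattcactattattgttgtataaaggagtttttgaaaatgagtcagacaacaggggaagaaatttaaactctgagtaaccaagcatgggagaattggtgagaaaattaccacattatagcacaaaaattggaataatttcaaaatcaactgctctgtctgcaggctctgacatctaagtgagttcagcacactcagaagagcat
Vmn1r137, chr7:21994337-21994586, plus strand: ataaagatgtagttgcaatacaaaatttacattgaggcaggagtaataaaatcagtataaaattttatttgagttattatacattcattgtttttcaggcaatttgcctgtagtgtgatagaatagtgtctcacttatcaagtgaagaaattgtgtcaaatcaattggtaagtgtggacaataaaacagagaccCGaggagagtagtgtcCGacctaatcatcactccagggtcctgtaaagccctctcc
Vmn2r101, chr17:19576981-19577230, plus strand: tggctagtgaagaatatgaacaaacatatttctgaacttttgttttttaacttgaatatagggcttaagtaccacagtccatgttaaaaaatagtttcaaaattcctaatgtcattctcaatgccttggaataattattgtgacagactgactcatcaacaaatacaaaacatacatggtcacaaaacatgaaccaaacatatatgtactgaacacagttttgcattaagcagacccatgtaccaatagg
Pramel43, chr5:94616341-94616590, minus strand: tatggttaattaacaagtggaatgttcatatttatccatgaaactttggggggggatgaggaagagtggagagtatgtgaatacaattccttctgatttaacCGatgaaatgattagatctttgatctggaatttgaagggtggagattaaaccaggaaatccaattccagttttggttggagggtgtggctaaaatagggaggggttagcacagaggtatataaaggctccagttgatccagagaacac
Defa41, chr8:21201354-21201603, plus strand: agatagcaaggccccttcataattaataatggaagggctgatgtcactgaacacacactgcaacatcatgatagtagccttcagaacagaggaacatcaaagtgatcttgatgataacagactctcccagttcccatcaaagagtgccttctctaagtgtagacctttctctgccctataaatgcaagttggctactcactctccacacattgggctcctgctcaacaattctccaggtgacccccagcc
Defa2, chr8:21378267-21378516, plus strand: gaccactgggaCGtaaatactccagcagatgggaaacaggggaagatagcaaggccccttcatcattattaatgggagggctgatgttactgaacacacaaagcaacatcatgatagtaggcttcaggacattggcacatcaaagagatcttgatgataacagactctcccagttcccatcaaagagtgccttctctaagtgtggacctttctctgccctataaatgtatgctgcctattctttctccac
Hnf4a, chr2:163506607-163506856, plus strand: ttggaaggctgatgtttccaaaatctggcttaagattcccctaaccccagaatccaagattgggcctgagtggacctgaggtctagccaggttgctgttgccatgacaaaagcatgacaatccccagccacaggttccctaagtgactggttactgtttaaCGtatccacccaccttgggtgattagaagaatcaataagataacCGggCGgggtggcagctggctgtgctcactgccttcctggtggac
The promoters of Olfr1234, Vmn2r101 and Defa41 hold no CG in these bases, Defa2 and Pramel43 hold 1 each, Vmn1r137 holds 2 and Hnf4a holds 3. The alpha defensin promoters align over 207 bases with 90.3% identity, 20 differing bases and a longest identical run of 57 bases. In the 300 bases around the start, the ratio of observed to expected CG was 0.183 for Hnf4a and 0.285 for Vmn1r137, so the open gene was not the richest in CG by this measure. It was 0 for Olfr1234, Vmn2r101 and Defa41.

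Peak-free bins held few genes, but not evenly few: most had no protein-coding gene and a minority were packed with them. A peak-free bin overlapped 1.02 protein-coding genes on average, against 2.80 in other bins, which is 4.09 against 11.2 genes per Mb. The median was 0 genes in peak-free bins and 2 in other bins. No protein-coding gene touched 869 peak-free bins (64.1%), against 1517 other bins (18.3%). At the other end, 27 peak-free bins (1.99%) held 10 or more protein-coding genes, against 394 other bins (4.76%). Bodies of protein-coding genes covered 14.9% of the bases of peak-free bins and 45.1% of those of other bins.

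The same figures from each library's own peaks varied little. EV replicates 1, 2 and 3 had no peak in 1679 (17.4%), 1536 (16.0%) and 1695 (17.6%) bins. Protein-coding genes per bin averaged 0.998 ± 0.0204 in bins without a peak of the library and 2.87 ± 0.0172 in bins with one (SD, n = 3). Bins without a protein-coding gene made up 62.2% ± 1.72 of those without a peak and 17.1% ± 0.180 of those with one (SD, n = 3). Without the library labelled EV replicate 2, peak-free bins overlapped 1.02 protein-coding genes against 2.86 in other bins, and 61.6% of them had none, against 17.5%. The gene annotation is the same for all 3 libraries, so these SDs measure only how far the peak lists differ.

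**Figure D1:**
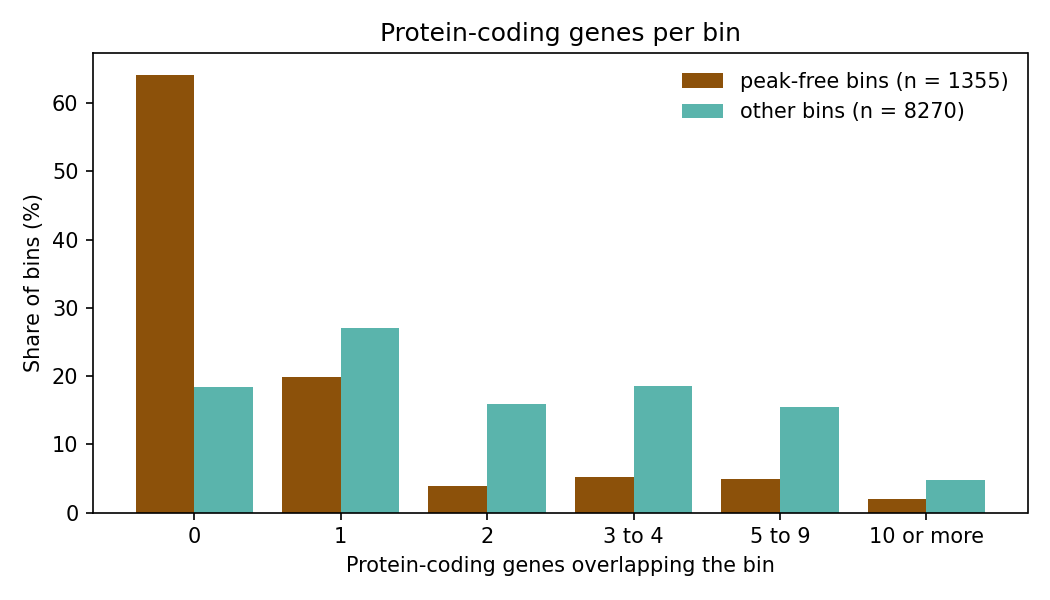
Share of bins (vertical axis, %) by the number of protein-coding genes that overlap them (horizontal axis), for 1355 peak-free bins on the left of each pair and 8270 other bins on the right. Bars are counts over all bins with no error; 64.1% of peak-free bins and 18.3% of other bins had no protein-coding gene, and every class from 1 gene upwards held a smaller share of the peak-free bins.

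Gene number did not fall steadily with the number of accessible regions, which were made by merging overlapping peaks of the 3 libraries. The 719 bins with exactly 1 region overlapped 0.907 protein-coding genes, fewer than the 1.02 of peak-free bins. Bins with 2 to 4 regions overlapped 1.20 genes, those with 5 to 9 overlapped 1.61, those with 10 to 19 overlapped 2.49 and those with 20 or more overlapped 4.66. The share of bins with no protein-coding gene did run one way, from 64.1% with no region through 55.1% with 1 region to 1.74% with 20 or more. With the regions of replicates 1 and 3 alone, bins with 1 region overlapped 0.906 protein-coding genes and those with 20 or more overlapped 4.999, with 52.6% and 1.23% of these bins without such a gene.

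The 719 bins with 1 region show how close to the threshold the rule works. In 334 of them the region had a peak in all 3 libraries and in 251 in 1 library, of which 184 were of replicate 2 alone, 36 of replicate 1 alone and 31 of replicate 3 alone. The peaks there had a median pileup of 63, 69 and 74 in replicates 1, 2 and 3, against 135, 126 and 159 over each whole list on these chromosomes. Pileups are the authors' own values and are not scaled for depth. Just inside the rule, 6 peak-free bins had a peak within 1 kb of their border and 85 within 10 kb. The median distance from a peak-free bin to the nearest peak of any library was 137964 bp.

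Other kinds of genes were spread differently from protein-coding ones. Pseudogenes, disabled copies of genes, were more numerous in peak-free bins, with 1.15 per bin against 0.940 in other bins. Genes of long noncoding RNAs averaged 0.441 per peak-free bin and 1.53 per other bin. Small RNA genes averaged 0.243 per peak-free bin and 0.435 per other bin. Variable (V) segments of the immunoglobulin and T cell receptor loci, from which lymphocytes assemble their receptors, averaged 0.165 per peak-free bin and 0.0366 per other bin. No gene of any type lay in 264 peak-free bins (19.5%), against 267 other bins (3.23%). Without the library labelled EV replicate 2 these values were 1.12 against 0.942 pseudogenes, 0.482 against 1.55 long noncoding RNAs, 0.231 against 0.443 small RNA genes, 0.140 against 0.0377 V segments, and 18.1% against 3.03% of bins without any gene.

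The share of peak-free bins differed between chromosomes. It was lowest on chromosome 19, with 16 of 234 bins (6.84%), and on chromosome 11, with 43 of 476 bins (9.03%). It was highest on chromosome 14, with 109 of 488 bins (22.3%), followed by chromosome 7 with 102 of 570 bins (17.9%). With replicates 1 and 3 alone the shares were 7.69% on chromosome 19, 10.3% on chromosome 11, 24.4% on chromosome 14 and 20.9% on chromosome 7. Peak-free bins overlapped fewer protein-coding genes than other bins on 19 of 19 chromosomes, with and without the library labelled EV replicate 2. Chromosome 15 had the emptiest peak-free bins, with 0.200 protein-coding genes against 2.63 in its other bins. Chromosome 7 had the fullest, with 3.02 against 4.19, and 21.6% of its peak-free bins had no protein-coding gene, against 13.5% of its other bins. Chromosome 2 came next, with 2.25 against 3.03 protein-coding genes per bin.

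**Figure D2:**
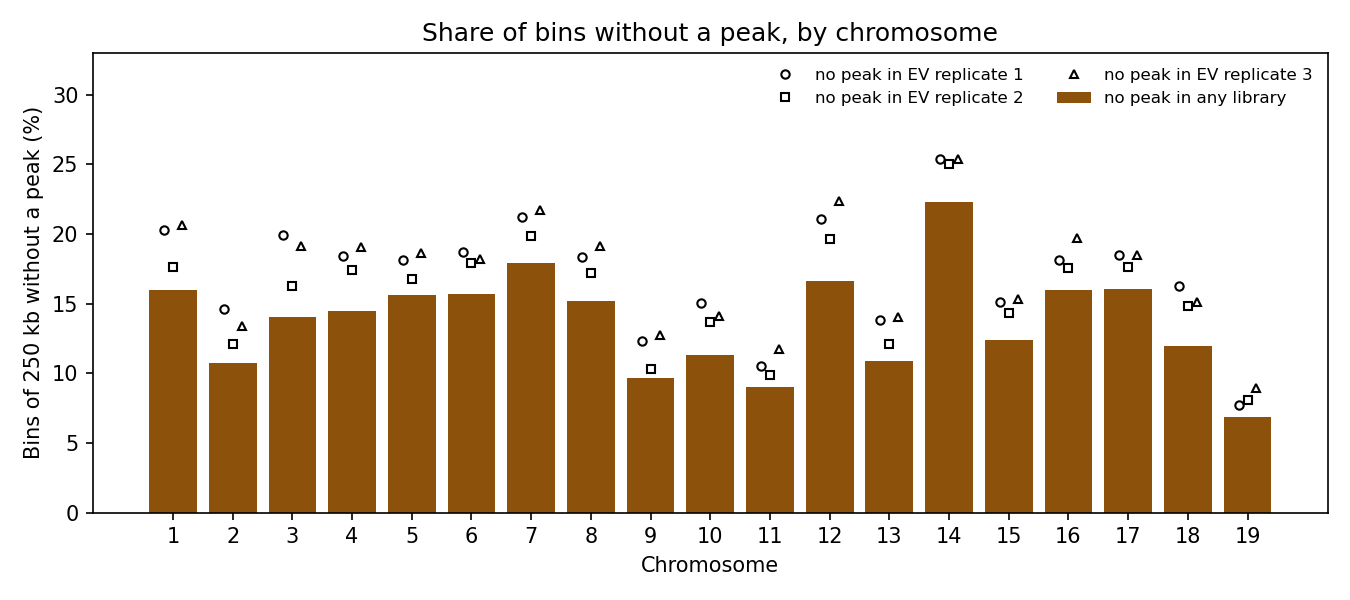
Share of bins of 250 kb without a peak (vertical axis, %) on chromosomes 1 to 19. Bars give bins with no peak in any library and open symbols give bins with no peak in EV replicate 1 (circles), 2 (squares) or 3 (triangles); the bar is highest on chromosome 14, at 22.3%, and lowest on chromosome 19, at 6.84%.

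Accessible regions thinned out toward peak-free bins. Bins next to a peak-free bin held 4.22 regions on average, bins at a distance of 2 held 10.4, bins at a distance of 3 held 14.6, and bins 21 or more away held 21.2. Protein-coding genes per bin followed the same order, with 1.47 at a distance of 1, 2.43 at a distance of 3 and 3.32 at 21 or more. In each library the lowest number of peaks was in the adjoining bins, with 3.16, 3.49 and 3.20 peaks per bin in replicates 1, 2 and 3. With the regions of replicates 1 and 3 alone, adjoining bins held 4.20 regions and 1.51 protein-coding genes, and bins 21 or more away held 18.4 regions and 3.47 genes. Since adjoining bins were often part of the same sparse stretch that the bin borders cut, this is a description of scale and not a separate result.

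**Figure D3:**
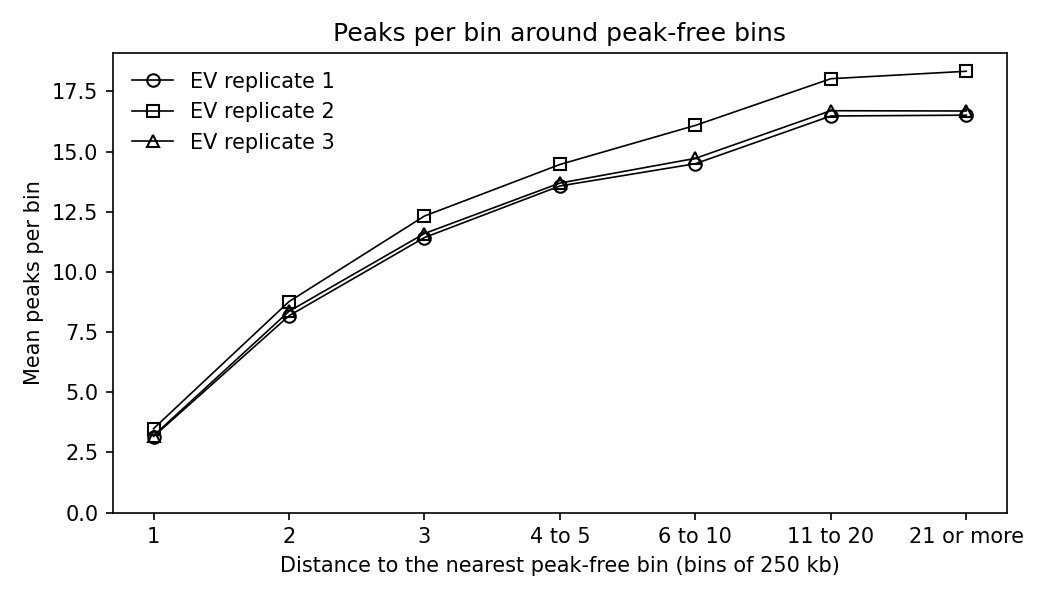
Mean number of peaks per bin of 250 kb (vertical axis) by distance to the nearest peak-free bin (horizontal axis, in bins), for each of the 3 EV libraries. Points are means over all bins at that distance; replicates 1, 2 and 3 had 3.16, 3.49 and 3.20 peaks in adjoining bins and 16.5, 18.3 and 16.7 in bins 21 or more away.

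The 1355 bins joined into 628 uninterrupted runs, of which 337 were a bin on its own. Runs of 4 or more bins numbered 97 and held 573 bins (42.3%). Of these long runs, 54 touched no protein-coding gene, 25 touched 1 or 2, 7 touched 3 to 9 and 11 touched 10 or more. Without the library labelled EV replicate 2 there were 704 runs, 120 of them of 4 or more bins, and the longest was again 4.25 Mb.

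The longest run lay at chr14:3250001-7500000, where no peak of any library was found for 4.52 Mb. It touched 67 protein-coding genes, from Gm2956 to Gm3752 in coordinate order, none of them in a family listed for this work, and 45 pseudogenes. A run of 3.75 Mb at chr7:20000001-23750000 touched 95 protein-coding genes, from Nlrp9b to Vmn1r173. Of these, 77 encode type 1 vomeronasal receptors, pheromone receptors of the vomeronasal organ, and 3 encode NLR proteins. A run of the same length at chr5:58000001-61750000 touched only Pcdh7, which encodes a protocadherin, a cell adhesion protein. The next runs, of 3 Mb at chr8:50500001-53500000 and of 2.5 Mb at chr13:86250001-88750000 and chr5:78000001-80500000, touched no protein-coding gene.

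The 8 runs of 2.25 Mb showed both forms again. At chr17:18500001-20750000 lay 22 protein-coding genes from Vmn2r96 to Vmn1r227, with 15 type 2 and 4 type 1 vomeronasal receptors and 3 formyl peptide receptors, which sense bacterial peptides or act in the vomeronasal organ. At chr5:93500001-95750000 lay 29 genes from Pramel33 to Pramel50, 18 of them Pramel genes, a family used in germ cells and early embryos. At chr14:41500001-43750000 lay 31 genes from 1700049E17Rik2 to Gm16506, in no listed family. The runs at chr1:28250001-30500000, chr3:70750001-73000000 and chr4:16750001-19000000 touched only Gm597, only Sis, and only Mmp16 with Cnbd1. Sis encodes sucrase-isomaltase of the intestinal brush border and Mmp16 a membrane-bound metalloproteinase. Those at chr14:81000001-83250000 and chr8:96500001-98750000 touched no protein-coding gene.

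Among shorter runs, chr2:88500001-90250000 touched 72 protein-coding genes, all of them odorant receptors, from Olfr1186 to Olfr1506. The run at chr7:32000001-33750000 touched 21 genes, all of them androgen-binding secretoglobins of saliva and tears, from Scgb2b10 to Scgb1b24. At chr7:8250001-10000000, 11 of 12 genes were type 2 vomeronasal receptors. At chr6:129750001-131250000, 12 of 17 were C-type lectin receptors of natural killer cells. These 4 runs were picked after their contents were seen.

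Of 20556 protein-coding genes, 1110 lay wholly in peak-free bins (5.40%), with 1309, 1174 and 1296 by the peaks of replicates 1, 2 and 3 alone. The families read out were defined by symbol, 52 in all. Their genes made up 769 of the 1110 (69.3%), and odorant and vomeronasal receptors alone made up 557 (50.2%). Among genes of listed families 769 of 3336 lay in peak-free bins (23.1%), with 25.7% without the library labelled EV replicate 2. Among the remaining protein-coding genes 341 of 17220 did (1.98%). Symbols beginning with Gm, which mark predicted genes, made up 247 of the 1110. Of the 52 families, 28 had 1 or more genes there and 24 had none. The 93 peak-free bins with 5 or more protein-coding genes were touched by 758 such genes, of which 381 were odorant receptors (50.3%) and 89 type 1 vomeronasal receptors, and 161 belonged to no listed family. With replicates 1 and 3 alone there were 104 such bins.

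Odorant receptors, which detect smells in olfactory sensory neurons, supplied the most genes: 383 of 1103 (34.7%) lay wholly in peak-free bins, against 5.40% of all protein-coding genes. By library the numbers were 464, 387 and 457 in replicates 1, 2 and 3, and 451 lay in bins without a peak of replicates 1 and 3. Their median distance to the nearest peak was 72.9 kb. Olfr1234 (chr2:89362483-89373646) lay farthest from a peak, at 1006 kb, followed by Olfr1238 at 988 kb. Of 1103 odorant receptors, 1079 (97.8%) had no peak within 1 kb of either gene end in any library, against 28.0% of all protein-coding genes. In all 3 libraries 13 had one (1.18%), against 65.8% of all protein-coding genes.

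Bins with many odorant receptors were peak-free more often than bins with few, beside 14.1% of all bins. Of 109 bins that overlapped 5 or more odorant receptor genes, 41 were peak-free (37.6%), against 2 of 63 bins with 1 to 4 (3.17%). In bins with 10 or more the number was 18 of 42 (42.9%), and 54.8% without the library labelled EV replicate 2. By chromosome, 136 of 287 odorant receptors lay in peak-free bins on chromosome 2, 77 of 239 on chromosome 7, 56 of 130 on chromosome 9 and 39 of 68 on chromosome 10. On chromosomes 16, 6 and 4 none did, of 36, 28 and 24 genes. Among odorant receptor pseudogenes 128 of 315 lay in peak-free bins (40.6%).

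Odorant receptors with a peak at their ends were few, and the tallest differed between libraries. Olfr1033 had gene-end pileups of 341, 302 and 326 in replicates 1, 2 and 3. Olfr94 had 104, 397 and 90, so its height rested on the library labelled EV replicate 2.

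Both classes of vomeronasal receptors were more often in peak-free bins than odorant receptors were. Of type 1 receptors 113 of 230 lay there (49.1%), and 114, 120 and 114 by the single libraries. Of type 2 receptors, large receptors for protein pheromones, 61 of 121 lay there (50.4%), and 66, 66 and 63 by the single libraries. Without the library labelled EV replicate 2 these were 114 type 1 and 63 type 2 receptors. Vmn1r137 (chr7:21994587-21995510) lay 1972 kb from the nearest peak and Vmn2r101 (chr17:19577231-19612317) lay 1254 kb away. Of the vomeronasal receptors on chromosome 7, 128 of 177 were in peak-free bins, against 27 of 45 on chromosome 17, 19 of 61 on chromosome 6 and 0 of 35 on chromosome 13. Trace amine receptors, the third listed family of receptors in the nose, differed from both in this share. None of 15 lay in a peak-free bin in any library, and their median distance to a peak was 3.69 kb. At the gene ends they were more alike: 13 of 15 trace amine receptors had no peak there in any library (86.7%). Of type 1 and type 2 vomeronasal receptors 99.1% and 97.5% had none, against 28.0% of all protein-coding genes.

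Single vomeronasal genes stood within accessible chromatin. Vmn1r4 had gene-end pileups of 944, 1132 and 1135 in replicates 1, 2 and 3, and Vmn2r29 had 227, 260 and 216. The pileups at both genes stood above the list medians in all 3 libraries.

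All 29 alpha defensins, antimicrobial peptides that Paneth cells of the small intestine secrete, lay in peak-free bins, in each library as in all together. Their median distance to a peak was 277 kb, and Defa3 (chr8:21287409-21288377) lay farthest, at 468 kb. None of the 42 beta defensins, antimicrobial peptides of epithelia, lay in a peak-free bin, where leaving out the library labelled EV replicate 2 gave 2. The 2 families were nearer in gene-end peaks. No library had one for 29 of 29 alpha and 39 of 42 beta defensins (92.9%), against 28.0% of all protein-coding genes. Other immune families were divided. Of 35 natural killer cell lectins 12 lay in peak-free bins (34.3%), including 11 of 11 Klra genes, with Klra1 782 kb from a peak. Clec2d of the same family had gene-end pileups of 858, 846 and 978. Formyl peptide receptors had 4 of 7 genes in peak-free bins.

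Families used in reproduction and the placenta were divided, as were the secretoglobins. Of Pramel genes 33 of 49 lay in peak-free bins (67.3%), with 33, 33 and 34 by library, and Pramel42 (chr5:94526284-94538367) lay 1198 kb from a peak. Pramel12 stood apart from its family with gene-end pileups of 573, 700 and 614. Of secretoglobins 24 of 40 lay there (60.0%), with 24, 30 and 24 by library, while Scgb1c1 had gene-end pileups of 340, 411 and 410. Of prolactin family genes, most of them placental hormones in mice, 11 of 26 lay there (42.3%). Obox genes, homeobox genes of the egg and early embryo, had 3 of 6. The set matched by symbol as placental cathepsins and cystatins had 1 of 42 (2.38%), against 5.40% of all protein-coding genes. This set also took in Ctsl and Ctsh, so its share is not that of placental genes alone. In all 3 libraries 14 of the 42 had a gene-end peak. Pregnancy-specific glycoproteins and CEACAMs had 3 of 28 (10.7%).

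Sensory families outside the nose gave smaller numbers. Of Mas-related receptors, which sensory neurons for itch and pain use, 9 of 20 lay in peak-free bins (45.0%), with Mrgpra3 438 kb from a peak. Of bitter taste receptors 12 of 35 did (34.3%), with 18, 12 and 12 by library. That number depended on where the borders fell: with the borders moved to the middle of the bins it was 0, and with bins of 100 kb it was 25. Tas2r126 had gene-end pileups of 160, 117 and 194. Of families used in skin and hair, 5 of 11 Skint genes and 8 of 56 keratin-associated protein genes lay there. Of late cornified envelope protein genes 0 of 35 did, and of keratins 0 of 53. These families were nearer in gene-end peaks. No library had one for 11 of 11 Skint, 52 of 56 keratin-associated, 34 of 35 late cornified envelope and 35 of 53 keratin genes. Of all protein-coding genes 28.0% had none.

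The protocadherins split by subfamily, with 18 of 67 in peak-free bins (26.9%) in each library, and 0 with bins of 500 kb. All 18 were among the 22 Pcdhb genes, and Pcdhb12 lay 204 kb from a peak, while Pcdh1 had gene-end pileups of 712, 866 and 899. Zinc finger genes were below the share of all protein-coding genes, with 14 of 417 (3.36%) against 5.40%. Zfp966 lay 776 kb from a peak and Zfp42, a gene of pluripotent cells, lay 599 kb away. No gene of the cytochrome P450 (99 genes), UDP glucuronosyltransferase (22), Serpina (23) or major urinary protein (22) families, all used by hepatocytes, lay in a peak-free bin. Neither did any Hox gene (39) or Sox gene (18), so this was not limited to hepatocyte families. In families of 22 or 23 genes, 0 is little below 5.40%. Of the 22 major urinary protein genes, 6 were open at an end in every library (27.3%, against 65.8% of all protein-coding genes). For 10 of the 22 no library showed an end peak (45.5%, against 28.0%), and by replicate 2 alone 1 lay in a bin without a peak. Of cytochrome P450, UDP glucuronosyltransferase and Serpina genes, 68.7%, 81.8% and 69.6% were open in every library.

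**Figure D4:**
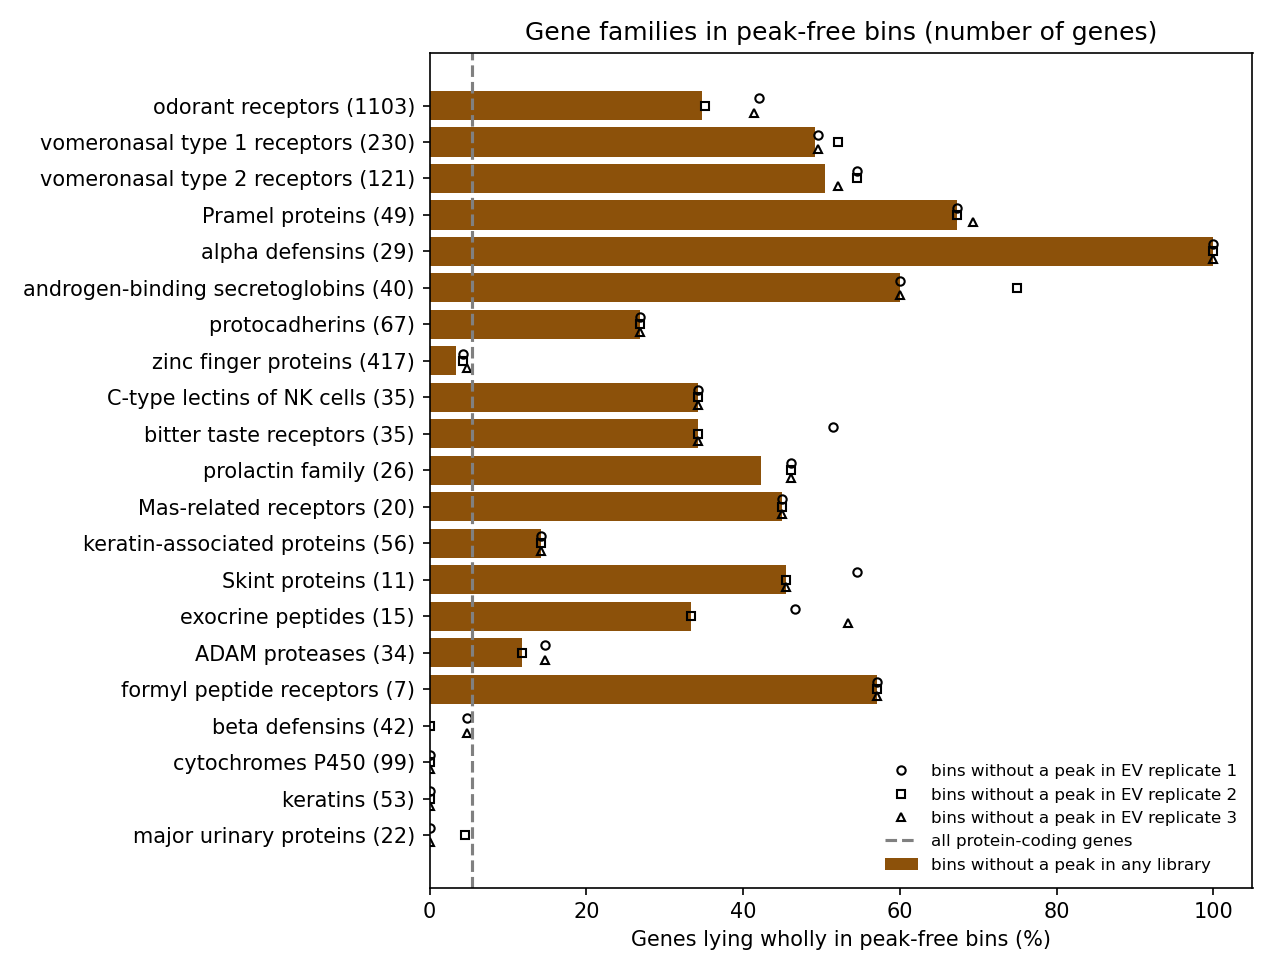
Share of a family's protein-coding genes that lie wholly in peak-free bins (horizontal axis, %), for the 17 families with 4 or more such genes and 4 families with none (number of genes in parentheses). Bars use bins with no peak in any library, open symbols use the bins of each library alone, and the dashed line is the 5.40% of all protein-coding genes; alpha defensins reach 100% in every library and zinc finger genes stay below the line.

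Distances to the nearest peak were longest in the repeated gene arrays. Of the 15 protein-coding genes farthest from any peak, 10 lay on chromosome 14 and 5 on chromosome 7, and 3 of them were type 1 vomeronasal receptors. Gm3500 (chr14:5365792-5389718) lay 2178 kb and Gm8271 2136 kb from the nearest peak. For Gm3500 the nearest peak was that of replicate 1, and the distance was 2316 kb in both other libraries.

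Genes of any type lay wholly in peak-free bins in 3660 of 46710 cases (7.84%). Pseudogenes did in 1523 of 9225 cases (16.5%) and long noncoding RNAs in 475 of 12324 (3.85%). Of V segments and their pseudogenes 224 of 527 did (42.5%), with the same 224 as a count without the library labelled EV replicate 2. By locus these were 90 of 183 at the immunoglobulin heavy chain, 71 of 162 at the kappa chain and 63 of 130 at T cell receptor alpha, against 0 of 35 at T cell receptor beta. Small nucleolar RNAs did in 183 of 1276 cases (14.3%) and small nuclear RNAs in 112 of 924 (12.1%). MicroRNAs did in 16 of 1136 cases (1.41%) and transfer RNAs in 4 of 386 (1.04%).

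Some peak-free stretches lay inside a long gene. There were 108 peak-free bins wholly within a protein-coding gene (7.97%), against 594 other bins (7.18%). A gene spanned 2 or more such bins in 20 cases, and in 22 without the library labelled EV replicate 2. Cntnap2 (chr6:45060061-47301393), a neuronal adhesion protein gene, and Lrp1b (chr2:40595290-42653598), a gene of the LDL receptor family, spanned 5 peak-free bins each. Their gene ends had a peak only in the library labelled EV replicate 2, with pileups of 59 and 57. Dpp10 and Pcdh15 spanned 3 each, as did Ccser1, Cadm2 and Dcc, the netrin receptor gene of growing axons, which lay wholly in peak-free bins.

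The long genes differed in whether their ends were open. In all 3 libraries 6 of 20 had a gene-end peak, against 65.8% of all protein-coding genes. In no library did 10 of 20 have one, against 28.0%. The 20 genes were picked by the absence of the same peaks along them, so these shares are a description only. Ctnna3 had the tallest, with pileups of 1134, 1308 and 1328 in replicates 1, 2 and 3, and spanned 2 peak-free bins. Macrod2 followed with 677, 966 and 751, and Cadm2 with 478, 829 and 524. Csmd1, Lrrc4c, Nkain2, Grik2 and Gabrg3, most of them used in neurons, were among those with no gene-end peak.

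Promoters of the genes inside were poor in CG, as in the sequences printed above. The start used is the annotated one, which for short receptor genes may be that of the coding sequence. RefSeq promoters of 300 bases, 250 before to 50 after the start, were matched for 958 of 1090 genes wholly in peak-free bins and 15498 of 18956 other genes, with chromosome 18 left out. Of these 958, odorant receptors gave 325 and type 1 vomeronasal receptors 108. The limit on the start therefore bears on much of the peak-free group, here and in the motif and shared-run counts below. The ratio of observed to expected CG, which is near 1 where CG is not depleted, had a median of 0.118 in peak-free bins and 0.630 in other bins. The GC content had a median of 38.0% in peak-free bins and 57.7% in other bins. A ratio of 0.6 or more, a usual mark of a CpG island, was reached by 29 promoters in peak-free bins (3.03%) and 8154 in other bins (52.6%). Without the library labelled EV replicate 2 the medians were 0.120 in peak-free bins and 0.635 in other bins.

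Low CG content was not limited to peak-free bins. Genes of other bins with no gene-end peak in any library had a median ratio of 0.191, and 10.5% of them reached 0.6, while those open at a gene end in every library had a median of 0.750, with 69.1% at 0.6 or more. Odorant receptors had medians of 0.0997 in peak-free bins and 0.113 in other bins. Type 1 vomeronasal receptors went the other way, with 0.203 in peak-free bins and 0.102 in other bins. The 11 hepatocyte markers with a promoter in the table had a median of 0.243, and all of them had gene-end peaks. Low ratios were therefore found in and outside peak-free bins, at receptor genes in peak-free bins and at hepatocyte genes with gene-end peaks.

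**Figure D5:**
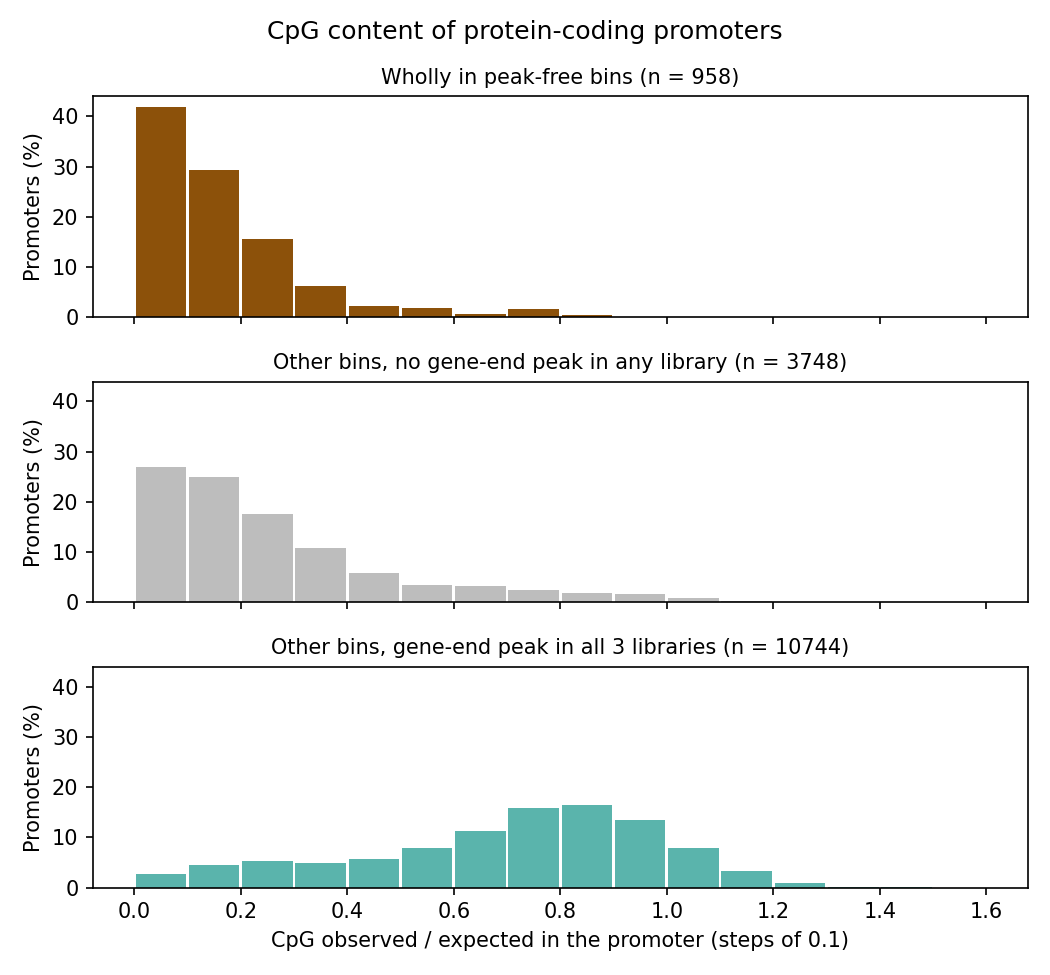
Observed over expected CG in promoters of 300 bases (horizontal axis, steps of 0.1) as the share of promoters in each step (vertical axis, %). From top to bottom the panels hold 958 genes wholly in peak-free bins, 3748 genes of other bins with no gene-end peak in any library, and 10744 genes of other bins with one in each of the 3 libraries; the medians are 0.118, 0.191 and 0.750.

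Short motifs were counted in the same promoters on both strands. TATAAA, the core of the TATA box, occurred in 41.8% of promoters in peak-free bins, 11.8% in other bins and 13.5% of all promoters. Among odorant receptors it occurred in 52.0% in peak-free bins and 35.4% in other bins, and among alpha defensins in 15 of 16 promoters. Type 2 vomeronasal receptors in peak-free bins were lower, with 11 of 58, and type 1 had 61 of 108 (56.5%). With replicates 1 and 3 alone it occurred over all genes in 41.0% of promoters in peak-free bins and 11.6% in other bins. TAATTA, a core that many homeodomain factors bind, occurred in 12.1% and 4.14% of promoters in peak-free and other bins, and in 4.61% of all. GGGCGG, the GC box, occurred in 38 of 958 promoters in peak-free bins (3.97%) and 7746 of 15498 in other bins, and in 47.3% of all. CCAAT occurred in 48.2% and 38.4% of promoters in peak-free and other bins, and in 38.9% of all. With replicates 1 and 3 alone, the homeodomain core occurred in 12.8% of promoters in peak-free bins and 4.03% in other bins. The GC box occurred in 4.60% and 50.3%, and the last motif in 47.7% and 38.3%, of promoters in peak-free and other bins of these libraries. TAATTA can share its outer bases with TATAAA. Base composition differed between the groups as given above, and its part in these shares was not tested.

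Promoters that shared sequence with that of another gene were more common in peak-free bins. Runs were matched on either strand without regard to position, so promoters of neighbouring genes that overlap in the genome counted too. Shared runs are therefore not a measure of repeats alone. A promoter that shared a run of 50 bases with the promoter of another gene was found for 448 of 958 genes in peak-free bins (46.8%) and 2055 of 15498 others (13.3%). Leaving out the library labelled EV replicate 2 gave 44.8% in peak-free bins and 13.1% in other bins. Within peak-free bins, 211 of 307 genes in no listed family had such a promoter (68.7%). Of genes in listed families there, 237 of 651 did (36.4%). How tags that match several places were treated is not given in the sources used here, and the part of shared sequence in the absence of peaks was not tested. Of genes whose promoters shared no such run, 510 of 13953 (3.66%) lay in peak-free bins, against 17.9% of those that shared one.

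Families differed in this respect. Among odorant receptors 35.9% of genes with a shared run lay in peak-free bins and 34.4% of those without. Among type 2 vomeronasal receptors the shares were 47.2% with a shared run and 55.8% without. Among type 1 receptors they were 67.5% and 33.3%, and among Pramel genes 84.0% and 40.0%. Neighbouring alpha defensin promoters aligned over 200 bases or more in 13 of 15 pairs, with a median identity of 84.2%, against 69 of 316 pairs of odorant receptors. Neighbouring type 2 vomeronasal receptor promoters did so in 46 of 55 pairs, with a median identity of 90.1%.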

How the data were processed

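ATAC-seq peak lists of 3 EV libraries, 1 group, were analysed. The submitters' processing notes name Bowtie2, Picard, deepTools, MACS2 and build mm10. Peaks were called on each library alone with MACS 2.2.7.1, with no control library, a shift of read ends by 100 bp, an extension to 200 bp, all duplicates in the input kept and a q cutoff of 0.05, per the file headers. The signal column is the pileup at the summit, deposited as raw tag numbers. Fold enrichment, a ratio to the local background, and the −log10 p and q values were deposited by the authors and used only to describe or filter peaks. A list without reads in closed regions gives no interval for them, and a deeper library can pass the threshold at weaker sites.

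Genes came from the RefSeq table of GRCm38.p6 (chromosomes 1 to 19, start beyond 3 Mb), which has no strand. A gene lay wholly in peak-free bins when every bin it touched was peak-free. A gene-end peak lay within 1000 bp of either end. Overlap meant 1 bp. The members, the gene families and the lists were chosen with earlier results of these data known. Genes named are those of the 10 longest runs and every run tied with them, the 2 farthest from a peak in each of the 12 families with the most genes inside, the 15 farthest of all, those spanning 2 or more peak-free bins, and up to 2 family members with the tallest gene-end peak. Examples were taken from these. The promoters shown are those of the genes farthest from a peak that have one in the table, 1 for each family shown and 2 for alpha defensins. No genome sequence was used, so assembly gaps and mappability were not examined. Python 3.11.15 with pandas 2.3.3 and numpy 2.4.6 was used, and the binning was tested on simulated peaks. The alternatives tried were other bin sizes and borders, each library left out, stronger peaks, summits, the first 3 Mb, chromosome X and gene midpoints.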

Additional observations from a re-analysis of the deposited data

Results flagged for a closer look

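Peaks on scaffolds not placed on a chromosome lie outside the bins used here. They numbered 92, 87 and 80 in EV replicates 1, 2 and 3, which is above the limit that a count of 0 allows. They were not analysed further.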

How the results depend on the processing

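Under 11 alternatives, 19 results were recomputed, which gave 208 values. Of these, 43 moved by more than the spread between libraries or, for counts, by more than 1.5 times. No difference between peak-free and other bins changed sign. Counts and the share of listed-family genes have no sign to change, so they could not reverse. The number of peak-free bins, 1355, was 6145 with bins of 100 kb and 365 with bins of 500 kb, and ranged from 1386 to 1595 with a library left out. The difference in protein-coding genes per bin, peak-free minus other, was -1.78 and became -0.986 with bins of 100 kb, -2.94 with 500 kb, -1.86 with the first 3 Mb kept, -1.45 with genes counted by midpoint and -1.84 with only peaks of −log10 q of 10 or more. It ranged from -1.83 to -1.79 with a library left out. The difference in the share of bins without a protein-coding gene, 45.8 percentage points, became 41.2 and 48.3 with bins of 100 kb and 500 kb, 43.6 with chromosome X, 49.4 with the first 3 Mb kept and 43.7 by midpoint, and ranged from 44.1 to 46.1 with a library left out. The share of listed-family genes with start and end in peak-free bins, 23.1%, became 36.9% and 13.1% with bins of 100 kb and 500 kb, and ranged from 23.2% to 25.8% with a library left out. The cause of the moves was not tested, except that bin size itself sets how many genes a bin can hold. By family, odorant receptors numbered 668 and 196 with bins of 100 kb and 500 kb, and alpha defensins 19, type 2 vomeronasal receptors 35 and Mas-related receptors 2 with bins of 500 kb. Leaving out bins of mostly undetermined bases was planned and not run, as no genome sequence was used here. No paired analysis was possible because there was 1 group of samples. The peak threshold limits what absence means: a region without a peak may still hold reads.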

Other observations

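Some genes known for their expression outside hepatocytes lay wholly in peak-free bins, in no listed family, and were picked after their positions were seen. Hgf (chr5:16553495-16619439), the hepatocyte growth factor gene that stellate and other stromal cells of the liver use, had its nearest peak at 244 kb in all 3 libraries. Ins1, an insulin gene of pancreatic beta cells, lay 361, 372 and 372 kb from the nearest peak of EV replicates 1, 2 and 3. Timd4, a receptor of resident macrophages and the only marker of another liver cell type found in a peak-free bin, lay 75.1 kb from a peak. Rgs18, a regulator of G protein signalling in platelets, lay 346 kb away.

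Groups of neighbouring genes were picked in the same way. Mmp13, Mmp12 and Mmp3 on chromosome 9, which encode secreted proteases of the extracellular matrix, lay 55.9, 128 and 98.4 kb from the nearest peak. Of all 23 Mmp genes 6 lay in peak-free bins, and 9 were open at a gene end in every library. Crisp1, Crisp3 and Pgk2 on chromosome 17, used in the epididymis and other glands and in sperm, lay 311, 373 and 358 kb away. Ccl21b, Ccl27b and Il11ra2 on chromosome 4 lay 398, 220 and 211 kb away.

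The interferon-inducible Ifi200 cluster on chromosome 1, whose proteins sense DNA, differed between libraries, and it was also picked after its values were seen. Of its 12 genes, 5 lay in bins without a peak of any library, and 11, 5 and 11 lay in bins without a peak of EV replicates 1, 2 and 3. The difference rests on the library labelled EV replicate 2, and no test of it was made.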
